A study of Bos indicus with 9 samples.

Results

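The albumin family neighborhood of cattle chromosome 6 was examined in the open chromatin of liver, muscle, and hypothalamus. Its members are the peaks of the 3 deposited lists that overlap 86.5 Mb to 89.2 Mb on chromosome 6 of ARS-UCD1.2, a window of 2.7 Mb chosen to hold the genes GC, ALB, and AFP. It held 64 peaks of 140923, with 44 of 78528 in hypothalamus, 14 of 40104 in muscle, and 6 of 22291 in liver. In ATAC-seq, an assay of chromatin accessibility, the Tn5 transposase cuts DNA that is not packed in nucleosomes and the fragments are sequenced. Libraries were made from frozen liver, muscle, and hypothalamus of the same 3 post-pubertal Brahman heifers (2047, 2054, and 2057), an indicine breed, without any treatment, for 9 libraries in all. The peak caller combined the 3 heifers of a tissue by Fisher's method into 1 consensus list, so values of the individual heifers cannot be read from them and no test between tissues was possible. Each peak has an area under the curve (AUC) of its combined −log10 p above the threshold and a −log10 p at its summit, and neither was scaled between lists. Levels were therefore compared as percentiles, the percent of peaks in the same list with a lower value.

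ALB encodes albumin, the main carrier protein of blood plasma, and AFP encodes alpha-fetoprotein, its fetal counterpart, which falls to low levels after birth. AFM encodes afamin, a carrier of vitamin E, and GC encodes the vitamin D binding protein. These genes arose from a common ancestor by duplication, are made chiefly by hepatocytes, and are classical targets of hepatocyte nuclear factors and C/EBP proteins at their promoters and upstream enhancers. Open chromatin is not a measure of transcripts, and the lists hold none. The paper also used RNA-seq of liver and hypothalamus for co-expression, which was not used here. In bulk tissue, fewer cells of a type and less open chromatin per cell cannot be told apart.

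The order of genes is known from the RefSeq annotation of an indicine assembly, NIAB-ARS_B.indTharparkar_mat_pri_1.0, whose coordinates do not apply to ARS-UCD1.2. There, SLC4A4, a sodium bicarbonate cotransporter, comes first, followed by GC, NPFFR2 (a receptor for neuropeptide FF), ADAMTS3 (a procollagen protease), COX18 (an assembly factor of cytochrome c oxidase), ANKRD17 (an ankyrin repeat protein), ALB, AFP, AFM, RASSF6, and the chemokine genes CXCL8 and PPBP. Positions of GC, ALB, AFP, and AFM on ARS-UCD1.2 were not used here, so peaks could not be assigned to their promoters or introns, and distances to them are not given. In the partial copy of the peak annotation used here, the only gene of the window with a position was CXCL3, which encodes a chemokine that attracts neutrophils.

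Liver had 6 peaks in the window, close to the median of 7 over 956 tiles of the chromosomes of the same length. Of these tiles, 433 held no more liver peaks than the window, so the count itself was not unusual. All 6 lay in its right part, and the first 1.68 Mb, up to 88184370, held no liver peak, against 26 hypothalamus peaks and 9 muscle peaks. A second stretch of 651 kb, from 88356066 to 89007398, held no liver peak, against 9 hypothalamus peaks and 1 muscle peak. A peak is listed only above the minimum of the caller, which was an AUC of 200.0 in the liver list, so weaker openness in these stretches cannot be seen. Outside the window, the liver list had no peak from 86449458 to the left edge, and the next peak to the right began at 90339952, 1.25 Mb beyond the last liver peak of the window.

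The median gap between neighboring liver peaks on chromosomes 1 to 29 and X was 41562 bp, and 972 of 12033 gaps were at least as wide as the one of 651 kb. The gap that ends at the first liver peak of the window, 1.73 Mb in full, stood at percentile 97.4, with 313 gaps at least as wide, and the gap of 1.25 Mb right of the last liver peak at percentile 95.9. These percentiles count gaps and not bases. Wide gaps hold more of the chromosomes than their number shows, so a locus lies in one more often than the percentiles imply. The share of bases in such gaps was not computed.

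Each of the 6 liver peaks is described from left to right. The first spans 88184371 to 88185110 (740 bp), with an AUC of 1077 and a summit −log10 p of 4.91. The next spans 88318483 to 88318705 (223 bp), with an AUC of 232 and a summit of 3.90. The third spans 88354896 to 88356065 (1170 bp), with an AUC of 1281 and a summit of 5.97. These 3 peaks lie within 172 kb and all overlap a peak in muscle and in hypothalamus.

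The fourth liver peak spans 89007399 to 89009171 (1773 bp), with an AUC of 878 and a summit of 3.68. The fifth spans 89061041 to 89061478 (438 bp), with an AUC of 203 and a summit of 3.26. Both were open in liver alone. The last spans 89092757 to 89093530 (774 bp), with an AUC of 532 and a summit of 4.59, and was again shared with both other tissues.

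By summit, 1 of the 6 liver peaks stood above the median of the liver list, the one at 88354896 to 88356065, at percentile 66.3. The others stood at percentiles 1.77 to 46.3, and the median over the 6 was 27.2. By AUC, 3 of 6 stood above the list median, with a median percentile of 56.7. The liver peaks of the window were long for their list and low per base: the median length of the 6 was 757 bp, that of the list 431 bp, whereas their AUC per bp had a median percentile of 20.1. The highest AUC per bp of the 6, at 88184371 to 88185110, stood at percentile 48.2. These ranks depend on the peaks they are taken among, since 12063 of the 22291 liver peaks lie on chromosomes 1 to 29 and X and the others on unplaced sequence. Among liver peaks of the chromosomes alone, the peaks at 88184371, 88354896, and 89092757 stood above the median by summit, at percentiles 60.0, 81.2, and 50.7, and the median over the 6 was 37.3. With the window widened by 100 kb at each end, which adds 1 liver peak, the median percentile in the whole list was 16.5. The liver-only pair remained low among liver peaks of the chromosomes alone, at percentiles 14.2 and 2.41.

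Whether the liver-only peaks lie at an albumin family gene could not be told, since positions of these genes were not used. The peak at 89061041 to 89061478 covers the annotated transcription start site (TSS) of CXCL3. Its AUC was at percentile 0.819 and its summit at percentile 1.77, next to the lower limit of the list. The nearest peak of another tissue, in hypothalamus at 89062538 to 89062805 (AUC 516, summit 5.43), overlaps the body of CXCL3 and begins 1059 bp away. No muscle peak lay within 10 kb of the gene. The peak at 89007399 to 89009171 has CXCL3 as its nearest gene in that annotation. Its length stood at percentile 96.0 of the liver list, whereas its summit stood at percentile 9.82.

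**Figure D1:**
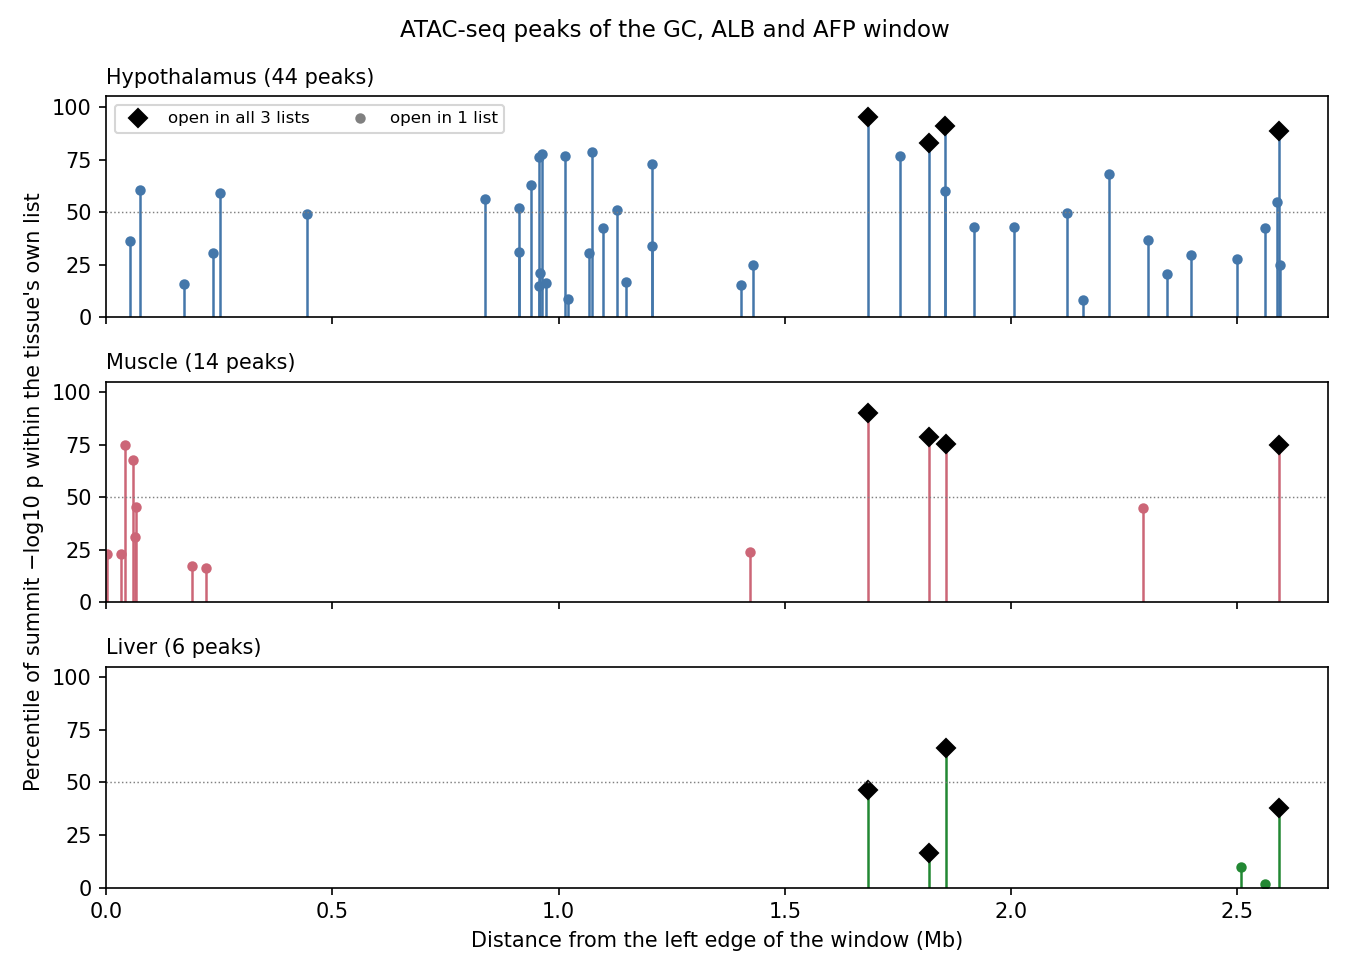
Each stem is a peak, at its distance in Mb from the left edge of the window, with a height equal to the percentile of its summit −log10 p within the list of its own tissue; black diamonds are regions open in all 3 lists and dots are peaks open in 1 list. Liver stems begin only after 1.68 Mb, and the 4 diamonds are the highest stems of each panel.

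Where any overlap counted as shared, no region of the window was open in exactly 2 tissues. The 64 peaks formed 56 distinct regions, of which 4 were open in all 3 tissues, 52 in 1 tissue, and 0 in exactly 2, with 1 bp of overlap counted as shared. This depends on the overlap required: with a reciprocal overlap of 50%, 43 of 44 hypothalamus peaks were unshared, whereas 10 of 14 muscle and 2 of 6 liver peaks were unshared as before. Over chromosomes 1 to 29 and X, by contrast, 30.6% of muscle peaks overlapped hypothalamus alone and 11.4% of hypothalamus peaks overlapped muscle alone, against 0 of 14 and 0 of 44 here. The 0 of 44 hypothalamus peaks allows a share of up to 8.03% and the 0 of 14 muscle peaks of up to 21.5%, as upper limits of 95% Wilson intervals. These intervals cover counting error only and treat peaks as independent, which neighbors are not.

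In hypothalamus, 40 of 44 peaks (90.9%, 95% Wilson interval 78.8 to 96.4) overlapped no peak of another tissue, against 74.8% of all hypothalamus peaks on chromosomes 1 to 29 and X. In muscle, 10 of 14 (71.4%, 45.4 to 88.3) were muscle-only, against 36.0% over these chromosomes. In liver, 2 of 6 (33.3%, 9.68 to 70.0) were liver-only, against 7.78%. With the lists as deposited, the single-tissue share was above that of the chromosomes in each list, and in liver it rests on 2 peaks. With peaks of a summit −log10 p under 5 left out of the lists, muscle-only peaks were 50.0% (4 of 8), and the 1 liver peak that was left was shared. With equal numbers of peaks per list, 0 of 3 hypothalamus peaks and 2 of 6 muscle peaks (33.3%) of the window were single-tissue, and the share over the chromosomes was not computed for that setting.

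Peaks open in all 3 tissues made up 4 of 44 in hypothalamus (9.09%, against 12.9% over chromosomes 1 to 29 and X), 4 of 14 in muscle (28.6%, against 30.4%), and 4 of 6 in liver (66.7%, against 79.3%). All these shares of the chromosomes lie inside the Wilson intervals of the window. The 4 regions had the 4 highest summits of the window in every list. In hypothalamus the lowest of them reached 11.8 against 10.4 for the next peak, whereas in muscle the margin was 7.26 against 7.24 and in liver 3.90 against 3.68. Median summits of the 4 regions were 14.7 in hypothalamus, 7.50 in muscle, and 4.75 in liver. Over chromosomes 1 to 29 and X, peaks open in all tissues had medians of 15.6, 7.60, and 4.86 in that order. Single-tissue peaks had 5.35, 4.53, and 3.73, so higher summits of shared peaks are not particular to this window.

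The first region open in all tissues is covered in common from 88184371 to 88185110. Hypothalamus gave it a summit −log10 p of 18.0, muscle 9.53, and liver 4.91, at percentiles 95.3, 89.9, and 46.3 of the respective lists. It was the highest summit of the window in both hypothalamus and muscle. By AUC (10208, 3230, and 1077) it stood at percentiles 94.9, 92.2, and 73.5.

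The second region is covered in common from 88318483 to 88318705, which is the whole of the liver peak. Hypothalamus reached a summit of 11.8 there, muscle 7.69, and liver 3.90, at percentiles 83.0, 78.8, and 16.5. By summit, hypothalamus and liver ranked it lowest of the 4, whereas muscle ranked it second. By AUC it was lowest of the 4 in hypothalamus (2707), muscle (981), and liver (232).

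The third region is covered in common from 88354896 to 88355965. The summit of hypothalamus was 15.4, that of muscle 7.30, and that of liver 5.97, at percentiles 91.0, 75.5, and 66.3. It is the region with the highest liver summit and liver AUC of the window, and its AUC was also the highest in hypothalamus, 10875.

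The fourth region is covered in common from 89092757 to 89093530, right of CXCL3. The hypothalamus peak had a summit of 14.1, the muscle peak 7.26, and the liver peak 4.59, at percentiles 88.4, 75.0, and 37.9. Within the whole lists, the percentile was highest in hypothalamus and lowest in liver in all 4 regions. Less openness in liver cannot be read from this order, because peaks open in all tissues made up 79.3% of liver peaks on the chromosomes. That share was 30.4% in muscle and 12.9% in hypothalamus. Among peaks of chromosomes 1 to 29 and X alone, liver stood above muscle in the third region (percentiles 81.2 and 79.1).

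The summits of the 3 tissues lay close together in each region, within 66 bp in the first, 42 bp in the second, 8 bp in the third, and 32 bp in the fourth. The common interval made up 25.0% to 46.9% of the interval covered by any tissue. Liver peaks were 0.25 to 0.481 times as long as the hypothalamus peak of the same region, and muscle peaks 0.453 to 0.56 times as long. The liver peak was shorter than the muscle peak in 3 of the 4 regions, and slightly longer in the third (1170 bp against 1102 bp). Which genes these 4 regions belong to was not determined.

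**Figure D2:**
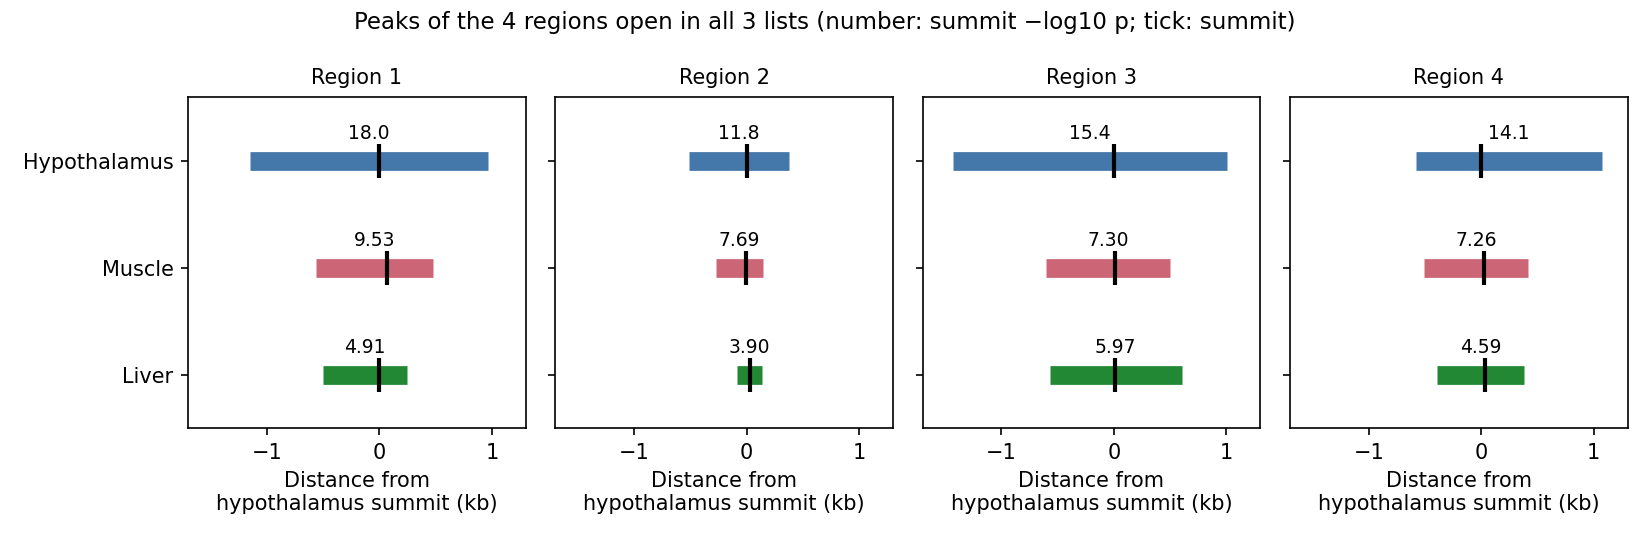
Bars are the peaks of hypothalamus, muscle, and liver in the 4 regions open in all lists, drawn by distance in kb from the hypothalamus summit, with the summit as a black tick and its −log10 p above the bar. The ticks of a region lie within 66 bp of each other, and the hypothalamus bar is the longest in each.

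Muscle peaks were gathered at the left end of the window. From 86502022 to 86720268, in 218 kb, there were 8 muscle peaks, all muscle-only, with 3 hypothalamus peaks and 0 liver peaks between them. The strongest of the 8 by summit spans 86541566 to 86541974 (AUC 1047, summit 7.24, percentile 74.9), and the strongest by AUC spans 86559308 to 86560269 (AUC 2191, summit 6.59). The other 6 had summits from 3.94 to 5.11. Right of this cluster, muscle had no peak over 1203 kb, up to 87923429.

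The other muscle-only peaks were isolated. One spans 87923430 to 87923650 (AUC 291, summit 4.21) and the other 88791446 to 88791710 (AUC 443, summit 5.07). Over all 14 muscle peaks, the median percentile was 45.2 by summit and 56.1 by AUC, near the middle of the list.

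The middle of the window held hypothalamus peaks alone. Between the muscle peaks that end at 86720268 and begin at 87923430, 22 hypothalamus peaks followed each other with no peak of another tissue between them, from 86735804 to 87903140. Their summits ranged from 3.83 to 10.4 (median 5.67), and 5 of them reached 8 or more. These 5 were at 87455079 to 87455925 (9.68), 87461876 to 87462880 (10.1), 87514489 to 87515346 (9.84), 87573145 to 87573828 (10.4), and 87706330 to 87707582 (8.89). They lie within 253 kb, at percentiles 72.7 to 78.8 of the hypothalamus list by summit. The run held 22 peaks in 1167 kb, or 1.88 per 100 kb. This is below the hypothalamus density of chromosomes 1 to 29 and X (27.1 per Mb). It is slightly above that of chromosome 6 (17.8 per Mb) and of the window (16.3 per Mb). The run holds the widest hypothalamus gap of the window, 394 kb from 86943241 to 87337318, where no list had a peak. Outside the run, hypothalamus-only peaks with a summit of 8 or more were at 88253284 to 88254171 (AUC 2431, summit 9.87), between the first pair of regions open in all tissues, and at 88716686 to 88717123 (AUC 1182, summit 8.01).

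Over all 44 hypothalamus peaks, the median percentile was 43.0 by summit and 42.0 by AUC, and 19 stood above the list median by summit. Among the 40 hypothalamus-only peaks the highest summit was 10.4 and the median 5.43, against a median of 5.35 for hypothalamus-only peaks on all chromosomes. Muscle-only peaks of the window had a median summit of 4.33 against 4.53, and the liver-only pair 3.47 against 3.73. Summits of single-tissue peaks in the window were therefore close to those of single-tissue peaks elsewhere in each list.

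**Figure D3:**
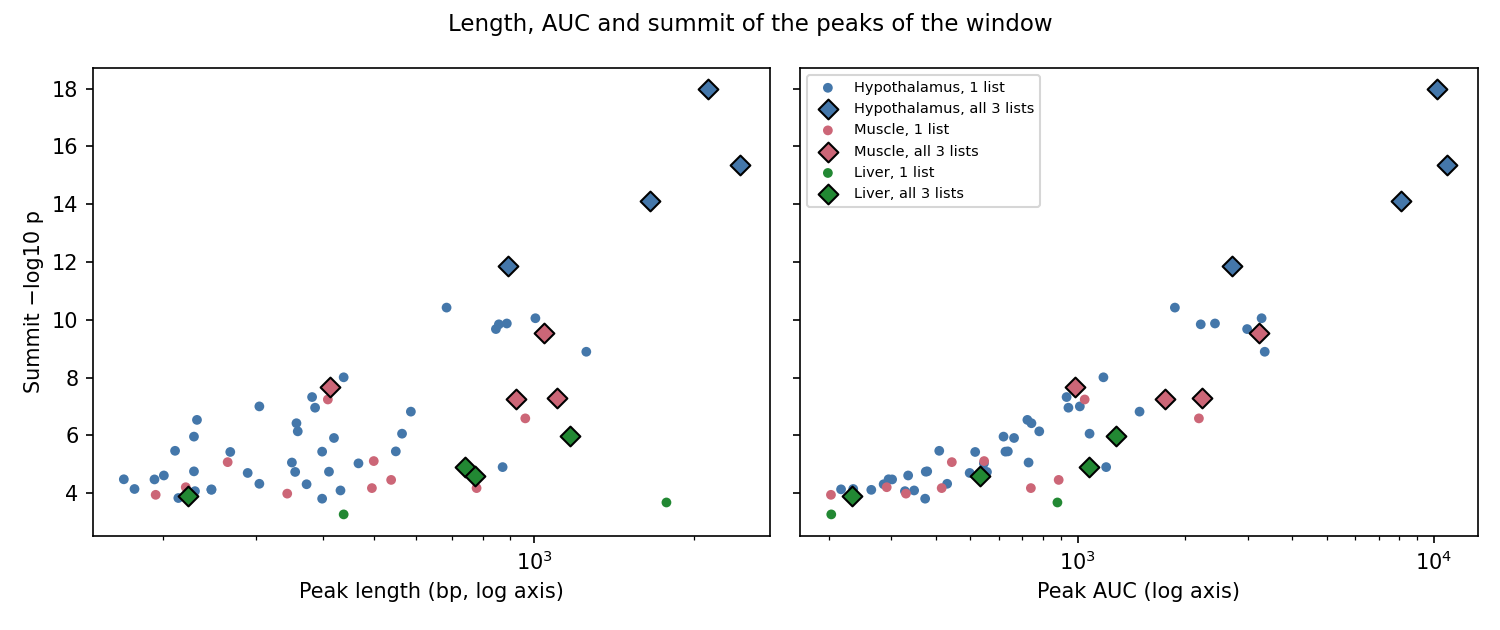
Summit −log10 p of the 64 peaks of the window against their length in bp and their AUC, both on log axes; diamonds are peaks of regions open in all 3 lists and dots are peaks open in 1 list. Summits and AUC were not scaled between lists, so points are to be compared within a color. The liver-only peak of 1773 bp is the longest liver peak and has a summit of 3.68, against 5.97 for the next longest.

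The window held fewer peaks per Mb than chromosomes 1 to 29 and X as a whole in all 3 tissues. It held 16.3 peaks per Mb in hypothalamus, 5.19 in muscle, and 2.22 in liver, against 27.1, 11.6, and 4.59 over chromosomes 1 to 29 and X. Over chromosome 6 as a whole the densities were 17.8, 6.15, and 2.32 per Mb, close to those of the window. For every 100 hypothalamus peaks there were 13.6 liver peaks in the window and 17.0 over the chromosomes, whereas for every 100 muscle peaks there were 42.9 and 39.6.

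Chromosomes 1 to 29 and X were divided into 956 tiles of the length of the window. The hypothalamus count stood at percentile 34.3 of the tiles (median 64 peaks), the muscle count at percentile 34.8 (median 22), and the liver count at percentile 42.1 (median 7). Of the tiles, 433 held no more liver peaks than the window, 73 of which held 0. On all 3 counts together, 251 tiles (26.3%) were at or below the window. Peaks covered 0.907% of the window in hypothalamus, 0.303% in muscle, and 0.19% in liver, against 2.32%, 0.781%, and 0.284% of the chromosomes.

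**Figure D4:**
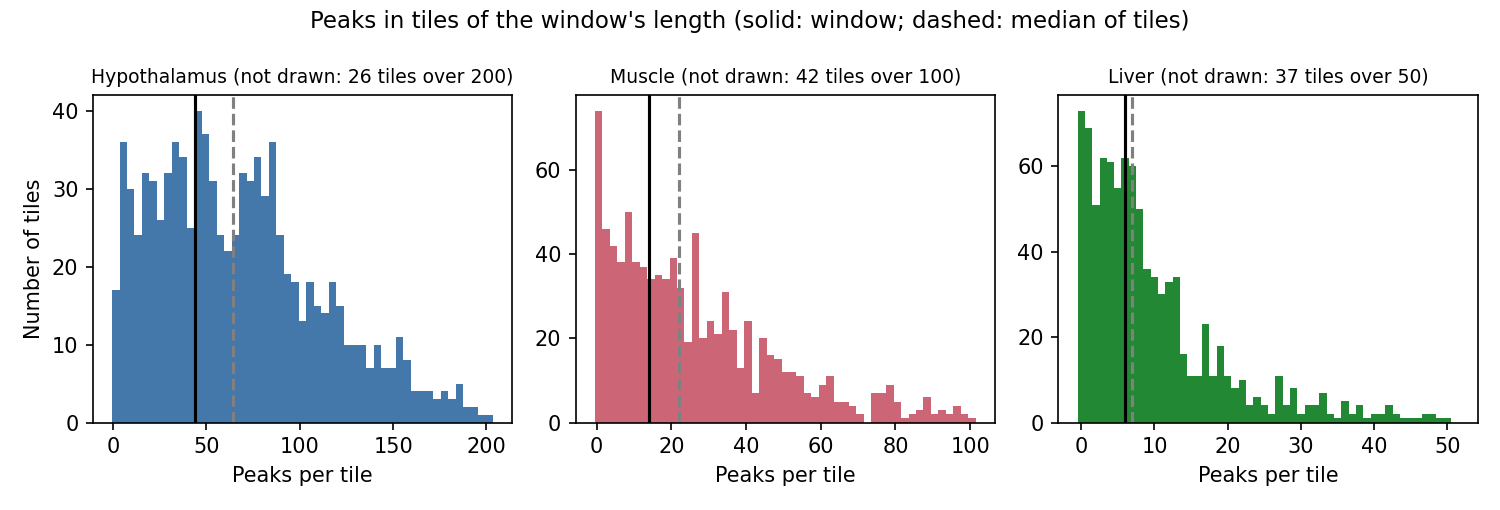
Histograms of the number of peaks per tile in each list over 956 tiles of 2.7 Mb; the solid line is the count in the albumin family window and the dashed line the median tile. The window lies left of the median in all 3 panels, by 1 peak in liver (6 against 7).

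Other genes of secreted plasma proteins were looked up to set the liver values of the window beside them. A check over the whole list was void, since that copy of the annotation placed only 15 of 58 genes (13 of 43 plasma proteins and 2 of 15 liver factors), fewer than the 80% required. Likewise only 1 of 12 hepatocyte markers, 1 of 12 skeletal muscle markers, and 0 of 12 neural markers had a position, so the tissue labels were not checked by markers. Genes enter this annotation by being nearest to a peak, which raises the shares: 61.0% of the 2014 placed genes had a liver peak within 3 kb of a TSS, 71.4% a muscle peak, and 80.1% a hypothalamus peak.

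Of the 13 plasma protein genes with a position, 4 had a liver peak within 3 kb of a TSS. FGG, which encodes the gamma chain of fibrinogen, had a liver-only peak over its TSS on chromosome 17 from 2840475 to 2840888 (AUC 247, summit 3.69). It had another liver-only peak from 2843706 to 2844297 (AUC 269, summit 3.74). AMBP, the precursor of alpha-1-microglobulin and bikunin, had a liver-only peak over its TSS on chromosome 8 from 103308443 to 103308934 (AUC 265, summit 3.30). ITIH1, a heavy chain of inter-alpha-trypsin inhibitor, had a liver-only peak on chromosome 22 from 48114305 to 48114707 (AUC 410, summit 3.75). These peaks stood at percentiles 2.20 to 11.9 of the liver list by summit, and the liver-only pair of the albumin family window at 1.77 and 9.82. All liver-only peaks of the chromosomes had a median summit of 3.73, below that of the ITIH1 peak. Low ranks are therefore general to liver-only peaks, and no likeness between the window and plasma protein genes can be read from them.

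APOA2, an apolipoprotein of high-density lipoprotein, had a liver-only peak on chromosome 3 from 8281843 to 8282118 (AUC 289, summit 3.57) beside a liver peak from 8280157 to 8280798 that was open in all tissues (AUC 1022, summit percentile 66.7). The genes TF, AHSG, CP, and KNG1, which encodes kininogen, had no liver peak at this distance. Of the liver factors, CEBPB had a liver peak over its TSS shared with both other tissues, on chromosome 13 from 78205058 to 78206441 (AUC 1810, summit 6.45), and RXRA had none. CEBPB also had a liver-only peak from 78203722 to 78204120 (AUC 246, summit 3.46). DES, a muscle marker that encodes desmin, had 4 muscle peaks within 3 kb of its TSS, 1 hypothalamus peak over the TSS (AUC 222, summit 3.71), and 0 liver peaks.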

How the data were processed

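ATAC-seq libraries of hypothalamus, muscle, and liver of 3 heifers were aligned by the authors to ARS-UCD1.2 with HISAT2, keeping multiple alignments per read, and peaks were called with Genrich 0.6.1, with PCR duplicates removed, the mitochondrial chromosome left out, and reads of several places counted in fractions. Genrich analyzed heifers separately and combined their p-values, giving the deposited consensus list per tissue, 1 for each of 3 tissues. The deposited signal of a peak is its AUC, and the deposited −log10 p at the summit is not corrected for multiple tests. The deposited score (AUC per bp times 1000, with 1000 as its highest value) and the offset of the summit from the peak start (other) were used only to place summits and to check the files. The lists hold no read counts, so the depth behind a peak is unknown.

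Starts were counted from 0 in the lists and are printed from 1. A peak was a member if it overlapped the window by 1 bp. Percentiles were taken within each whole list, taking ties at their midpoint. Of the 22291 liver peaks, 12063 lie on chromosomes 1 to 29 and X and the others on unplaced sequence, against 30483 of 40104 in muscle and 71028 of 78528 in hypothalamus. The planned account of peaks at the TSSs of GC, ALB, AFP, and AFM was not made, for want of positions on this build. Tiles were laid from the start of each chromosome up to its highest peak end, and a peak was counted in the tile of its midpoint. TSS positions came from the authors' supplementary annotation, which is held only in part. The supplementary columns of the authors' own enrichments and co-expression were not used. Genomic sequence was not used here. The sites named are those of a written rule: every liver peak, the regions open in all lists, the strongest peaks of the other lists, and listed genes with a liver peak within 3 kb of a TSS. The hypothalamus peaks with a summit of 8 or more, the gaps, the muscle cluster, and the listed genes open in hypothalamus or muscle alone were singled out after their values were seen. The window, members, and gene lists were chosen with earlier results of these data known. Overlaps, percentiles, and intervals were tested on simulated data. Calculations used python 3.11.15, numpy 2.4.6, scipy 1.17.1, and matplotlib 3.10.9.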

Additional observations from a re-analysis of the deposited data

How the results depend on the processing

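Of 46 alternative values for 17 results, 33 stayed and 13 moved. To stay, a count had to lie within 1.5 times the main count, and a share or median within its 95% interval. Percentiles among tiles were judged by their shift, set against the width of a 95% Wilson interval for a share of tiles. The liver median intervals span all 6 peaks, so staying within them says little: the liver AUC median went from 56.7 to 20.1 with AUC per bp, and the summit median from 27.2 to 16.5 in a window widened by 100 kb. The liver peak count enters these totals under 2 names. With peaks under a summit −log10 p of 5 left out, the window kept 27 hypothalamus peaks, 8 muscle peaks, and 1 liver peak, 0% of liver peaks were liver-only, and the median AUC percentile in hypothalamus was 31.6. With as many peaks per list as liver has on chromosomes, 3 hypothalamus peaks and 6 muscle peaks remained against 6 in liver, 0% of the hypothalamus and 33.3% of the muscle peaks being single-tissue. A reciprocal overlap of 50% raised the hypothalamus-only share to 97.7%, AUC per bp gave a median percentile of 54.4 in hypothalamus, and 7 plasma protein genes had a liver peak within 10 kb. Tiles shifted so that they straddle the first ones, chosen after seeing the data, put the hypothalamus count at percentile 32.9, the muscle count at 35.8, and the liver count at 44.6. Leaving out peaks lowers counts, more overlap lowers sharing, and a longer distance adds genes by construction, and the cause of the other moves was not tested. The alternatives for peaks at the albumin family genes were not run, since their positions were not used here. No paired analysis was possible because each list combines the 3 heifers, and no heifer could be left out for the same reason. The liver results rest on 6 peaks.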

Other observations

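Some plasma protein genes with a position in the annotation had a hypothalamus peak and no liver peak within 3 kb of a TSS. TF, which encodes transferrin and is also known as a product of oligodendrocytes, had 3 hypothalamus-only peaks within 3 kb of its TSS and 0 in muscle and liver. The one over the TSS lies on chromosome 1 from 135613630 to 135618878, with an AUC of 22649 (percentile 99.5) and a summit −log10 p of 19.8. AHSG, which encodes the plasma protein fetuin-A, was on the list of hepatocyte markers. It had a hypothalamus-only peak over its TSS on chromosome 1 from 80616290 to 80618895 (AUC 4493, summit 9.23). No liver peak lay within 3 kb of the AHSG TSS, but a liver peak was listed within 10 kb. CP, the copper carrier ceruloplasmin, had a hypothalamus-only peak from 118956178 to 118956442 on the same chromosome (AUC 788, summit 6.77). Openness in liver below the minimum of the caller cannot be seen in these lists, and no test between tissues was possible.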
